A study of Homo sapiens with 12 samples.

Results

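The genes described here are 7 that work around p53 and the retinoblastoma protein, the cellular proteins held by viral oncoproteins in 293T cells. They are RB1, RBL1 and RBL2 (the retinoblastoma family), CDKN2A and MDM4 (regulators upstream of RB and p53), and EP300 and CREBBP (acetyltransferase coactivators). A probe set, the group of short probes that reads 1 transcript region, was counted as a member when the annotation of the array gave it exactly 1 gene symbol and that symbol was 1 of these 7. This selected 23 of 54675 probe sets, 6 for MDM4, 2 for RB1, 4 for RBL1, 2 for RBL2, 3 for CDKN2A, 2 for EP300 and 4 for CREBBP. The rule uses gene symbols and no measured value.

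The arrays held RNA from 293T, a line derived from human embryonic kidney that carries adenovirus early genes and the large T antigen of SV40, in 3 groups of 4 biological replicates. In the tRNA vector group the transfected plasmid expressed the tRNA gene chr1.tRNA68-Gly(GCC), described in the labels as the source of the small RNA CU1276. The hairpin vector group received an artificial hairpin for the same small RNA, and the empty vector group the plasmid alone. Transfection used polyethylenimine and was transient, and cells were collected 48 hours later, so the line, its viral genes and the transfection are shared by the 3 groups and no untransfected cells were compared. The labels call the replicates biological but do not say whether they came from separate cultures, so the p-values measure the spread between these arrays. In such bulk samples fewer expressing cells and less RNA per cell cannot be told apart.

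As background, proteins of the RB family bind E2F transcription factors and hold back genes of DNA synthesis until cyclin-dependent kinases phosphorylate them. Large T antigen and an adenovirus early protein bind the pocket of the RB family and release E2F. Large T antigen also binds p53 and, like an adenovirus early protein, contacts the coactivators p300 and CBP, the products of EP300 and CREBBP. CDKN2A encodes both an inhibitor of the kinases that phosphorylate RB and, in another reading frame, the ARF protein that protects p53, and its transcript is known to be abundant in cells without working RB. The viral proteins act on these proteins, whereas the arrays measured RNA.

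E2F factors are known to act on the RBL1 promoter, so the DNA around each start site was searched for 4 exact E2F words (TTTCCCGC, TTTCGCGC, TTTGCCGC and TTTGGCGC) and for the cell cycle homology element TTTGAA, bound by the complex that RBL1 and RBL2 form with the MuvB core, on both strands. RefSeq windows of 300 bases (GRCh38.p14, 250 before to 50 after a start site) were at hand for all 7 genes, 10 windows in all. An E2F word was found in 1 of the 10, that of RBL1, against 3.31% of all 35116 windows. RBL1 held 2 such words, starting 26 and 16 bases before the start site. TTTGAA was found in the windows of MDM4 and RBL2, 2 of 10, against 15.2% of all windows, with matches starting at bases -185 and 13 from the start site in MDM4 and at base 25 in RBL2. The RB1 window in that table begins far downstream of the annotated gene start (base 48476200 against 48303751 on chromosome 13), so the main RB1 promoter was not searched. The stretches that hold the words in RBL1 (chr20:37096000-37096029, minus strand) and RBL2 (chr16:53434483-53434512, plus strand) are shown in the direction of transcription with the matched words in capitals. A match describes letters and not a bound site.
RBL1: gcagatTTTCGCGCgcTTTGGCGCaggtgg
RBL2: ggcgcttcgccgTTTGAAtggctgcgggcc

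Signals are MAS5 values on a linear scale, which the authors had scaled to the same trimmed mean on each array. Median signals of the 12 arrays ran from 75.9 to 104. Across probe sets, which are no replicates of each other, 2 arrays had log2 signals that correlated at r = 0.895 to 0.918. Bacillus RNAs added during labelling had a mean signal of 1726 to 1834 on the arrays numbered 1, of 331 to 389 on those numbered 2 and of 20.0 to 26.1 on those numbered 3 and 4, with the 3 groups equally represented at each level. Of the markers of the line, 7 of 8 measured ones lay above the filter used for testing, a geometric mean signal of 43.3, among them the neurofilament NEFM (3872 to 5486), the kidney developmental gene EYA1 (624 to 754) and vimentin, VIM (19029 to 25719). Only CD79A of 5 measured blood cell markers did (25.2 to 177), and of 6 fibroblast and liver markers 5 did, led by COL1A1 (607 to 1105). Summed marker signals overlapped between groups in each list. They were 32147 to 36188 in tRNA vector cells, 29842 to 33951 in hairpin vector cells and 28630 to 32688 in empty vector cells for the line. For blood cells the sums were 207 to 309 in tRNA vector cells, 211 to 335 in hairpin vector cells and 122 to 387 in empty vector cells, and for fibroblasts and liver 917 to 1223 in tRNA vector cells, 1011 to 1469 in hairpin vector cells and 987 to 1413 in empty vector cells.

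None of the 7 genes differed between vectors by the test across all probe sets. Of their 23 probe sets 21 passed the filter on dim signals, and the dimmest probe sets of CDKN2A and of CREBBP did not. In limma 0 of the 21 passed at an adjusted p under 0.05 in any of the 3 comparisons, as did 0 of all 32768 tested probe sets (0% in each comparison). At an unadjusted p under 0.05 there was 1 of 21 for the tRNA vector against the empty vector, RB1, where 3.78% of all tested probe sets lay under that value. For the hairpin vector against the empty vector there was also 1, EP300, with 2.65% of all tested probe sets. For the hairpin vector against the tRNA vector there were 0 of 21, with 3.88% of all tested probe sets. In 0 of 21 did the 4 arrays of a vector lie wholly above or below those of the other, against 2.6%, 2.12% and 2.63% of all tested probe sets in the 3 comparisons. The members' median log2 fold change was 0.0015 for tRNA over empty vector, -0.030 for hairpin over empty vector and 0.0018 for hairpin over tRNA vector, the comparison called between the vectors from here on, beside medians of -0.00035, 0.0031 and 0.0051 over all tested probe sets.

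RB1 encodes the retinoblastoma protein, the founding pocket protein. Its brightest probe set read 1968, 1627, 1292 and 1534 on the tRNA vector arrays numbered 1 to 4, 2201, 1854, 1688 and 1677 on the hairpin vector arrays, and 2014, 1936, 1698 and 2128 on the empty vector arrays. The tRNA vector array was the lowest of its number each time, yet the groups overlapped, since tRNA vector array 1 lay above empty vector arrays 2 and 3. The mean signal was 1605 ± 280.1 with the tRNA vector, 1855 ± 245 with the hairpin vector and 1944 ± 182 with the empty vector (SD, n = 4 each). The log2 fold change of the tRNA vector over the empty vector was -0.29 ± 0.13 (limma SE), a fold of 0.819 with a 95% interval of 0.676 to 0.993. Its limma p was 0.0436 before adjustment and its limma adjusted p was 1.00 over all tested probe sets, and the exact permutation p was 0.0857. With the replicate number as a block the limma adjusted p was 0.453. By labelling level (arrays numbered 1, then 2, then 3 and 4) the log2 fold change was -0.033, -0.25 and -0.43, and it was -0.19 without tRNA vector array 3. The hairpin vector differed from the empty vector by -0.072 ± 0.13 and from the tRNA vector by 0.22 ± 0.13 (exact permutation p = 0.514 and 0.229).

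The other RB1 probe set shared that pattern only in part, the tRNA vector array being the lowest at numbers 2 and 3 alone. It read 178, 317, 435 and 668 on tRNA vector arrays, 137, 421, 527 and 621 on hairpin vector arrays and 184, 389, 484 and 608 on empty vector arrays. Its signal thus followed the array number in every group, with means of 167, 376, 482 and 632 for numbers 1 to 4. The 3 vectors of a number differed less, from 137 to 184 at number 1 and from 317 to 421 at number 2. The tRNA vector array lay below the empty vector array of its number in 3 of 4 cases. The log2 fold changes against the empty vector were -0.091 ± 0.49 (tRNA vector) and -0.041 ± 0.49 (hairpin vector), and 0.050 ± 0.49 between the vectors.

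RBL1 encodes p107, the pocket protein that is itself an E2F target. On its brightest probe set the arrays read 589, 544, 436 and 542 on tRNA vector arrays, 637, 378, 462 and 628 on hairpin vector arrays and 593, 557, 505 and 603 on empty vector arrays. The hairpin vector arrays spanned the widest range and enclosed those of the other groups. Means were 528 ± 64.8 with the tRNA vector, 526 ± 128 with the hairpin vector and 565 ± 44.2 with the empty vector (SD, n = 4 each). Against the empty vector the log2 fold change was -0.10 ± 0.17 (tRNA vector) and -0.13 ± 0.17 (hairpin vector), with 95% fold intervals of 0.725 to 1.20 and 0.710 to 1.17. Its second probe set read 344, 715, 386 and 501 on tRNA vector arrays, 181, 391, 457 and 414 on hairpin vector arrays and 315, 483, 435 and 340 on empty vector arrays. There the hairpin vector array was the lowest of numbers 1 and 2 but not of numbers 3 and 4. Between the vectors that probe set stood at -0.46 ± 0.29 (exact permutation p = 0.371), while the brightest stood at -0.030 ± 0.17.

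RBL2 encodes p130, the pocket protein best known from resting cells, where it forms the DREAM repressor with the MuvB core. For RBL2 the brightest probe set read 1600, 847, 935 and 1019 on tRNA vector arrays, 2276, 1123, 1232 and 1573 on hairpin vector arrays and 1682, 1178, 1107 and 1151 on empty vector arrays. Array 1 was the highest of each group, and within each number the hairpin vector array lay above the tRNA vector array. Means were 1100 ± 341 with the tRNA vector, 1551 ± 519.8 with the hairpin vector and 1280 ± 270 with the empty vector (SD, n = 4 each). The hairpin vector stood 0.48 ± 0.23 above the tRNA vector on the log2 scale, a fold of 1.40 with a 95% interval of 0.995 to 1.97. This was the largest difference of a brightest member probe set in any of the 3 comparisons. It did not pass (limma p = 0.0531 unadjusted, limma adjusted p = 0.9997, exact permutation p = 0.171). The standard error, the interval and these p-values leave out the array number, which held 68.6% of this probe set's sum of squares of log2 signal. Taken by labelling level the difference was 0.51, 0.41 and 0.51, and it was 0.28 without hairpin vector array 1 and 0.68 without tRNA vector array 1. Each of these omissions takes array 1, the highest of each group, from 1 group only. In the arrays numbered 2 to 4 alone, a setting chosen after the data were seen, the difference was 0.48. With the replicate number as a block the count of all probe sets called between the vectors was 6 in place of 0, and RBL2 was not among them (limma adjusted p = 0.153 with the replicate block).

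Against the empty vector RBL2 stood on either side of 0, at -0.24 ± 0.23 (tRNA vector) and 0.24 ± 0.23 (hairpin vector), neither past the test (exact permutation p = 0.371 and 0.429). Both comparisons share the empty vector arrays. The tRNA vector value was -0.44 without tRNA vector array 1 and -0.10 without empty vector array 1, and the hairpin vector value was 0.040 without hairpin vector array 1 and 0.38 without empty vector array 1. In the arrays numbered 2 to 4 alone, balanced over the numbers, the values were -0.30 (tRNA vector) and 0.18 (hairpin vector). The second RBL2 probe set read 294, 649, 500.0 and 502 on tRNA vector arrays, 229, 558, 612 and 614 on hairpin vector arrays and 359, 446.5, 611 and 487 on empty vector arrays. In it array 1 was the lowest of each group, opposite to the brightest probe set, and the log2 fold changes were 0.0015, 0.0033 and 0.0018 (SE 0.31) in the 3 comparisons.

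CDKN2A, which encodes the kinase inhibitor p16 and ARF, was bright on every array. Its brightest probe set, of a type that can also bind related transcripts by the naming rule of the array, read 7161, 7522, 8395 and 8429 on tRNA vector arrays, 6686, 7251, 7820 and 8669 on hairpin vector arrays and 7695, 6010, 8090 and 6930 on empty vector arrays. The ranges of the 3 groups overlapped, with the lowest array (6010) in the empty vector group and the highest (8669) in the hairpin vector group. Means were 7877 ± 636 with the tRNA vector, 7606 ± 846 with the hairpin vector and 7181 ± 917 with the empty vector (SD, n = 4 each). Log2 fold changes against the empty vector were 0.14 ± 0.10 (tRNA vector) and 0.086 ± 0.10 (hairpin vector), with 95% fold intervals of 0.943 to 1.29 and 0.909 to 1.24. The next probe set, whose signals lay between 2697 and 3456 on all 12 arrays, gave 0.062 ± 0.083 and -0.030 ± 0.083, with 95% fold intervals of 0.923 to 1.18 and 0.866 to 1.11, the narrowest of the 21. The remaining probe set lay between 14.0 and 24.3 apart from 82.6 on tRNA vector array 2 and did not pass the filter. The sources used here do not say which reading frame a probe set reports.

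MDM4 encodes MDMX, which binds p53 and masks its activation domain. The brightest of its probe sets read 3996, 2426, 4349 and 4521 on tRNA vector arrays, 3925, 3119, 4899.8 and 4372 on hairpin vector arrays and 3725, 2368, 4188 and 4628 on empty vector arrays. Array 2 was the lowest of each group. Means were 3823 ± 956 with the tRNA vector, 4079 ± 754 with the hairpin vector and 3727 ± 978 with the empty vector (SD, n = 4 each), and the log2 fold changes against the empty vector were 0.039 ± 0.22 and 0.15 ± 0.22. The next probe set read 3397, 3709, 2913 and 3239 on tRNA vector arrays, 3294, 3868, 3031 and 3255 on hairpin vector arrays and 2899, 3820, 3113 and 3298 on empty vector arrays. By its name this probe set, like the brightest of CDKN2A, is of the type that can also bind related transcripts. In that one array 2 was the highest of each group, the reverse of the brightest probe set, and the vectors differed by 0.016 ± 0.11, 0.036 ± 0.11 and 0.020 ± 0.11 in the 3 comparisons. The other 4 MDM4 probe sets were dimmer (8.44 to 378), with log2 fold changes of -0.44 to 0.32 and standard errors of 0.22 to 0.86.

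EP300 encodes p300, an acetyltransferase that serves p53, E2F and many other factors. Signals of the brightest probe set were 1110, 858, 855 and 840 on tRNA vector arrays, 1609, 819, 1151 and 1008 on hairpin vector arrays and 855, 808, 903 and 808 on empty vector arrays. The empty vector arrays lay close together, and 3 of 4 hairpin vector arrays lay above all of them, while hairpin vector array 2 lay among them. Means were 915.5 ± 130 with the tRNA vector, 1147 ± 337 with the hairpin vector and 843 ± 45.6 with the empty vector (SD, n = 4 each). The hairpin vector stood 0.40 ± 0.17 above the empty vector on the log2 scale, a fold of 1.32 with a 95% interval of 1.03 to 1.70 (limma p = 0.0325 unadjusted, limma adjusted p = 0.9999, exact permutation p = 0.0857). By labelling level the difference was 0.91, 0.019 and 0.34, and without hairpin vector array 1 it was 0.22. The hairpin vector array lay above the empty vector array of its number in 4 of 4 cases, and with the replicate number as a block the limma adjusted p was 0.852. The tRNA vector stood at 0.11 ± 0.17 against the empty vector.

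The other EP300 probe set did not share that pattern, since hairpin vector array 1 was the highest of its number and arrays 2 to 4 the lowest of theirs. It read 299, 414, 569 and 526 on tRNA vector arrays, 469, 293, 506 and 465 on hairpin vector arrays and 325, 461, 659 and 498 on empty vector arrays, and its log2 fold changes against the empty vector were -0.10 ± 0.25 (tRNA vector) and -0.15 ± 0.25 (hairpin vector).

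CREBBP encodes CBP, the close relative of p300. Its brightest probe set read 2503, 1485, 1528 and 1545 on tRNA vector arrays, 2110, 1857, 1778 and 1831 on hairpin vector arrays and 1751, 1914, 1724 and 1570 on empty vector arrays. Apart from tRNA vector array 1 and hairpin vector array 1, all arrays lay between 1485 and 1914. Means were 1766 ± 492 with the tRNA vector, 1894 ± 148 with the hairpin vector and 1740 ± 141 with the empty vector (SD, n = 4 each), with log2 fold changes of -0.012 ± 0.15 and 0.12 ± 0.15 against the empty vector. The second probe set read 251, 391.9, 328 and 328 on tRNA vector arrays, 302, 253, 249.3 and 334 on hairpin vector arrays and 230, 288, 232 and 283 on empty vector arrays. The tRNA vector array was above the empty vector array of its number in 4 of 4 cases, at 0.32 ± 0.18 on the log2 scale (limma p = 0.0924 unadjusted, limma adjusted p = 1.00, exact permutation p = 0.0857). The third, tested and dim, stood at -0.45 ± 0.64 and -0.51 ± 0.64 against the empty vector.

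**Figure D1:**
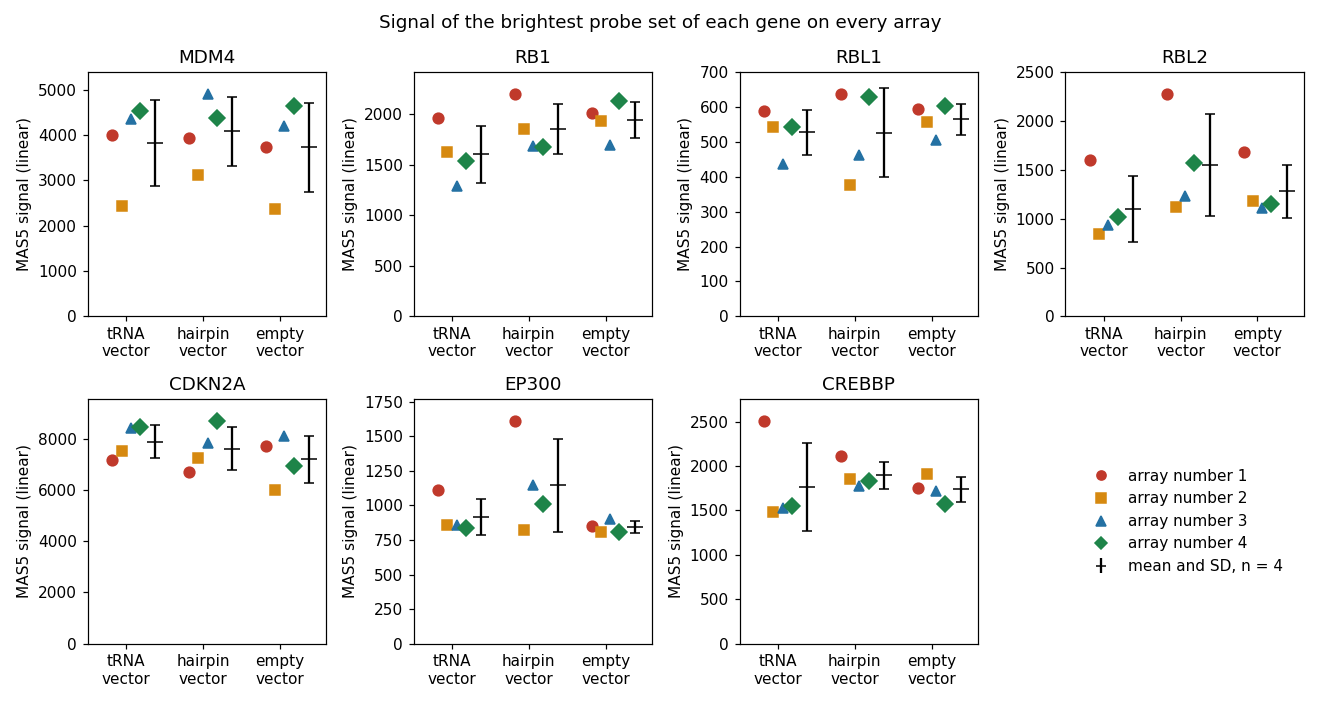
MAS5 signal (linear axis from 0) of the brightest probe set of each of the 7 genes on each array, by vector, with symbols for the array number and a bar for mean and SD (n = 4). The groups overlap for every gene, and array 1 is the highest of its group for RBL2 in all 3 groups.

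**Figure D2:**
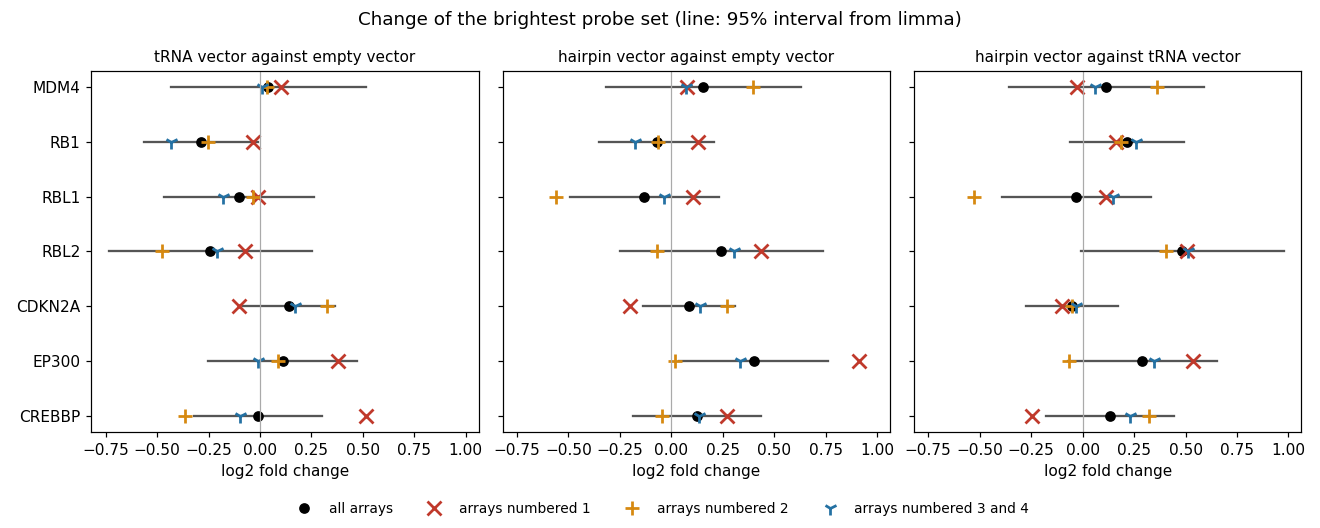
Log2 fold change of the brightest probe set of each gene in the 3 comparisons (black points, with 95% intervals from limma as lines) and the same difference within each labelling level, the arrays numbered 1, then 2, then 3 and 4 (coloured marks). The interval leaves out 0 only for RB1 with the tRNA vector (fold 0.676 to 0.993) and for EP300 with the hairpin vector (fold 1.03 to 1.70). These intervals are from the fit without the array number, which held 68.6% of the sum of squares of log2 signal for RBL2.

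The 3 vectors could be ordered for a gene only within the spread of its arrays. By mean signal the order from low to high was tRNA vector, hairpin vector, empty vector for RB1, hairpin, tRNA, empty for RBL1, and tRNA, empty, hairpin for RBL2. It was empty, hairpin, tRNA for CDKN2A and empty, tRNA, hairpin for MDM4, EP300 and CREBBP. For CREBBP the log2 fold change of the tRNA vector over the empty vector had the other sign (-0.012), and its tRNA vector mean includes 2503 on array 1. No pair of neighbours in any of these orders differed by the limma test. The 95% intervals still allow changes of some size. For RBL2 with the hairpin vector they reached from a fold of 0.841 to 1.66 against the empty vector, and for RBL1 with the tRNA vector from 0.725 to 1.20.

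The array number accounted for more of the spread of these probe sets than the vector did. Over the 21 tested probe sets the median share of the sum of squares of log2 signal was 8.69% between vectors and 48.8% between array numbers, beside 12.0% and 39.98% over all tested probe sets. Vectors take 18.2% and numbers 27.3% of the degrees of freedom. The share between numbers was above that between vectors in 20 of 21, the exception being the second CREBBP probe set (27.2% between numbers, 32.4% between vectors). It was 96.2% for the second RB1 probe set, 90.1% for the brightest MDM4 probe set and 80.2% for the second RBL2 probe set. The 3 arrays numbered 1 lay wholly outside the other 9 in 4 of the 21 (19%), 1 higher and 3 lower, against 12.9% of all tested probe sets, 5.6% higher and 7.26% lower. These were the brightest RBL2 probe set, higher on arrays 1 (mean 1853, against 1049, 1091 and 1248 for numbers 2 to 4), and the second of RB1, the second of RBL2 and the third of RBL1, lower on arrays 1. The means of the second RBL2 probe set were 294, 551, 574.5 and 534 for numbers 1 to 4. The levels of the Bacillus labelling RNAs move with the same numbers, and their part in these differences was not tested. Since every number holds the 3 vectors once, the vector comparisons are balanced over it.

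**Figure D3:**
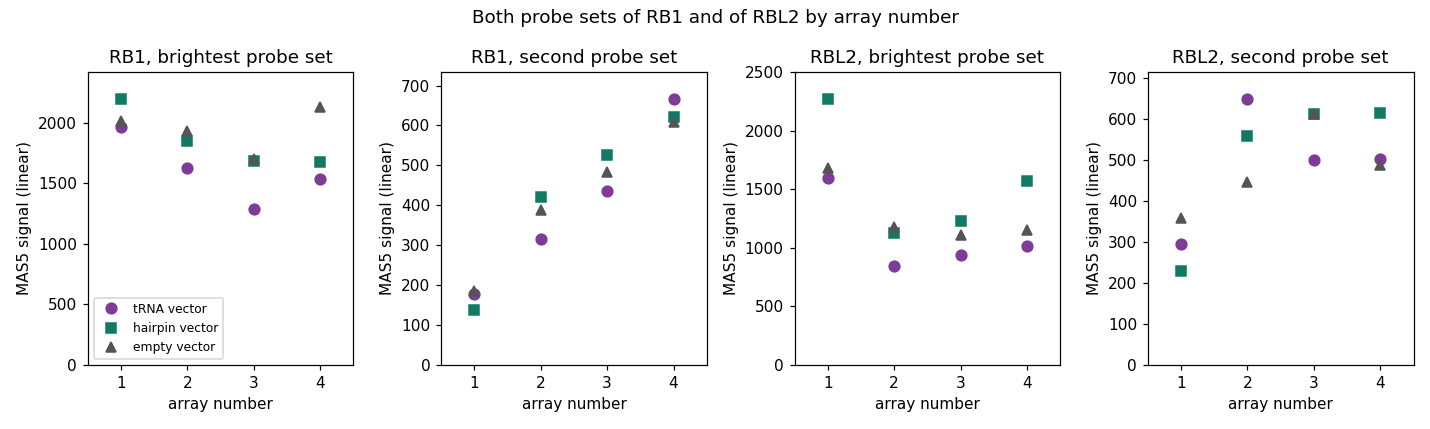
MAS5 signal (linear axis from 0) of both probe sets of RB1 and both of RBL2 on each array against the array number, with a symbol for each vector. The second RB1 probe set has means of 167, 376, 482 and 632 at numbers 1 to 4, taken over the 3 vectors, and the 2 RBL2 probe sets stand on opposite sides at number 1, with 1853 for the brightest and 294 for the second.

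The tested probe sets of a gene shared a sign for some genes and not for others. For the tRNA vector against the empty vector both RB1 probe sets were negative and both tested CDKN2A probe sets positive, while RBL1, RBL2, MDM4, EP300 and CREBBP had both signs. For the hairpin vector against the empty vector both RB1 probe sets were negative and both of RBL2 positive. Between the vectors, RB1 and RBL2 were positive and the 4 of RBL1 and 2 of CDKN2A negative in every tested probe set, with values of -0.46 to -0.016 for RBL1. Over the 21 tested probe sets 10 were lower and 11 higher with the tRNA vector, 11 lower and 10 higher with the hairpin vector, and 10 lower and 11 higher between the vectors, where 50.1%, 49.2% and 49.0% of all tested probe sets were lower.

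**Figure D4:**
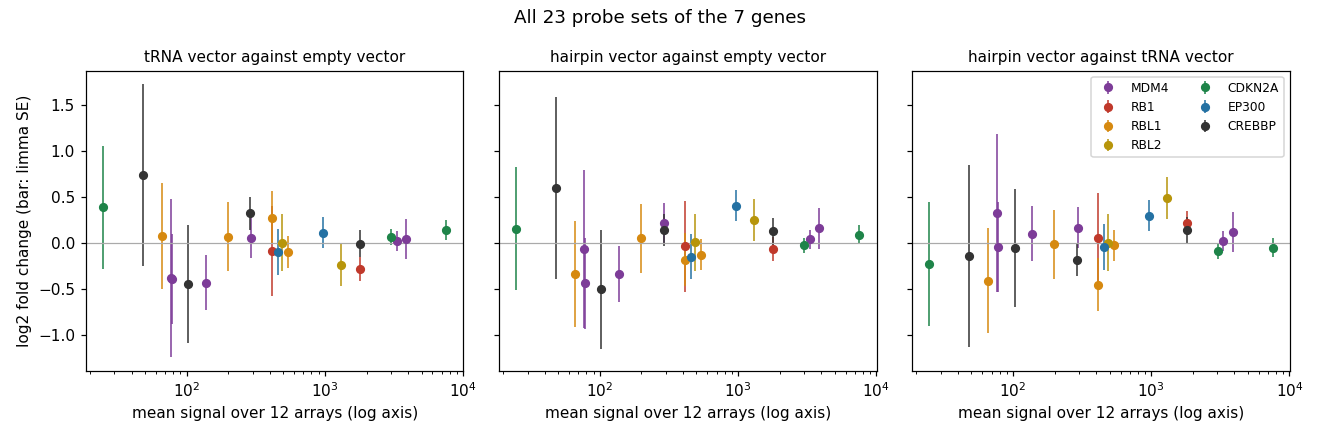
Log2 fold change of all 23 probe sets of the 7 genes against their mean signal over the 12 arrays (log axis), with the limma standard error as a bar. The dim probe sets on the left have the widest bars, up to 0.99 for the dimmest of CREBBP, and the 2 bright probe sets of CDKN2A and the second of MDM4 on the right have bars of 0.083 to 0.11.

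Genes of the surrounding pathway were examined as 7 lists, which hold 106 symbols of which 99 were measured. In limma 0 of the 99 passed at an adjusted p under 0.05 in each comparison. At an unadjusted p under 0.05 there were 3 lower and 0 higher with the tRNA vector, 1 lower and 2 higher with the hairpin vector, and 0 lower and 6 higher between the vectors, beside 336 lower and 258 higher, 174 lower and 208 higher, and 268 lower and 368 higher of 13952 tested genes. Of all tested genes 49.3%, 48.8% and 49.4% were lower in the 3 comparisons, to be read beside the counts of each list, which were not tested. For each list the gene with the smallest p is named as values only.

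Among the partners that the RB family acts through, the E2F and DP factors had 5 of 10 lower with either vector against the empty vector and 4 of 10 between the vectors. E2F3, an activating E2F, stood at -0.24 ± 0.10 with the tRNA vector, E2F2 at 0.24 ± 0.13 with the hairpin vector, and E2F7, an atypical repressor, at 0.21 ± 0.075 between the vectors. Of E2F target genes 15 of 20 were higher with the tRNA vector (median 0.060), 12 of 20 with the hairpin vector (median 0.013) and 5 of 20 between the vectors (median -0.039), beside medians of 0.0030, 0.0042 and 0.0028 over all tested genes. POLE2, a subunit of a replicative polymerase, stood at 0.13 ± 0.076 with the tRNA vector and -0.14 ± 0.076 between the vectors, and CDT1, which licenses replication origins, at -0.30 ± 0.22 with the hairpin vector. Of the MuvB core and its partners, with which RBL1 and RBL2 form DREAM, 7 of 8 were lower with the tRNA vector (median -0.080), 5 of 8 with the hairpin vector (median -0.043) and 3 of 8 between the vectors (median 0.031). LIN52, a MuvB subunit, stood at -0.17 ± 0.11 (tRNA vector) and -0.24 ± 0.11 (hairpin vector) against the empty vector, and LIN9, another, at 0.34 ± 0.13 between the vectors. Of chromatin factors that bind RB, 2 of 13 were lower with the tRNA vector (median 0.068), 5 of 13 with the hairpin vector (median 0.012) and 8 of 13 between the vectors (median -0.033). ARID4B, an RB-binding cofactor of histone deacetylases, stood at -0.14 ± 0.085 with the tRNA vector and 0.16 ± 0.085 between the vectors, and CBX5, a heterochromatin protein, at 0.10 ± 0.096 with the hairpin vector.

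Upstream of the RB family, G1 cyclins, their kinases and inhibitors had 8 of 14 lower with the tRNA vector (median -0.030), 7 of 14 with the hairpin vector (median -0.00076) and 4 of 14 between the vectors (median 0.073). CDKN2B, the kinase inhibitor encoded next to CDKN2A, had a signal of 390 ± 32.1 with the tRNA vector and 542 ± 22.8 with the empty vector (SD, n = 4 each), and its groups did not overlap, as for 1.43% of tested probe sets in that direction. Its log2 fold change was -0.48 ± 0.15 by limma, and it did not pass after adjustment, while the 2 tested CDKN2A probe sets were at 0.14 and 0.062. CDC25A, a phosphatase that activates the kinases, stood at 0.24 ± 0.096 with the hairpin vector and 0.21 ± 0.096 between the vectors.

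Of regulators and cofactors of p53, the setting in which MDM4, EP300 and CREBBP act, 10 of 22 were lower with the tRNA vector (median 0.037), 13 of 22 with the hairpin vector (median -0.017) and 12 of 22 between the vectors (median -0.023). CSNK1A1, a kinase known to work with MDM4, stood at 0.12 ± 0.064 with the tRNA vector. USP7, a deubiquitinase that stabilises MDM4 among other proteins, stood at 0.24 ± 0.073 with the hairpin vector (signal 3077 ± 97.2 with the hairpin vector and 2611 ± 157 with the empty vector, limma adjusted p = 0.9999), and its groups did not overlap, as for 1.06% of tested probe sets in that direction. KAT2B, the acetyltransferase PCAF, stood at 0.30 ± 0.13 between the vectors. Other cellular partners of SV40 T antigens had 6 of 12 lower with either vector (medians -0.0011 and -0.0093) and 8 of 12 between the vectors (median -0.019). Among them FBXW7, a ubiquitin ligase subunit, stood at -0.51 ± 0.20 with the tRNA vector and 0.38 ± 0.20 between the vectors, and PPP2R1A, the scaffold of PP2A bound by small T antigen, at 0.30 ± 0.24 with the hairpin vector. Over the 99 genes the groups did not overlap for 4 with the tRNA vector (0 higher, 4 lower), 3 with the hairpin vector (3 higher, 0 lower) and 6 between the vectors (5 higher, 1 lower). These are 4.04%, 3.03% and 6.06% of the list genes, beside 2.94%, 2.33% and 3.24% of all tested genes. With the tRNA vector they were CDKN2B, FBXW7, E2F7 and CDKN1C, with the hairpin vector CDC25A, USP7 and KAT2B, and between the vectors CDC25A, USP7, E2F7, LIN9, KAT2B and POLE2, listed here for that property after their values were seen.

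The genes with the most similar pattern over the 12 arrays were found from the log2 signal less the mean of the 3 arrays with the same number. For RB1 they were PIGA (Pearson r = 0.982) and FBXW7 (0.938), for RBL1 PLA2G12B (0.955) and GFRA1 (0.949), for RBL2 PDE10A (0.973) and TIPARP (0.967), and for CDKN2A SEC24B-AS1 (0.954) and VAV2 (0.948). For MDM4 they were HCG22 (0.969) and MRGPRG-AS1 (0.918), for EP300 LDB1 (0.943) and NBPF1 (0.913), and for CREBBP HIVEP1 (0.984) and C9orf72 (0.954). These are the highest of 13945 genes over 12 arrays, whose labelling level follows the array number, and the subtraction leaves fewer than 12 free values. Before the subtraction the r ranged from -0.095 (MDM4 with HCG22) to 0.960 (RB1 with PIGA), so the likenesses describe these arrays only. Among the members themselves r lay between -0.81 for MDM4 with RBL1 and 0.64 for RBL2 with EP300, with EP300 and CREBBP at 0.42.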

How the data were processed

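Per the submitters' processing notes the authors made the values with MAS5 (no version given), and the deposited values are linear signal intensities, with a column for each array. The 2% trimmed mean was 500.1 in every deposited column. The genome build and annotation version are not given in the sources used here. Symbols came from the array annotation (41097 probe sets with 1 symbol, 1801 with several, 11777 not listed), updated by Entrez identifier, which changed 0.

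The log2 of each signal was taken, with no offset. Controls (62) and probe sets under the 40th percentile of mean log2 signal were left out, which left 32768, with 13952 genes, each represented by its brightest probe set. In R 4.3.3, limma 3.58.1 fitted 3 group means over the 12 arrays (eBayes with intensity trend), Benjamini-Hochberg adjusted over all tested probe sets, two-sided, threshold 0.05, and tested on simulated data. Exact permutation tests (two-sided, 70 splits of 8 arrays, smallest p 0.0286) were run for the member probe sets alone in 3 comparisons and are not adjusted. Standard errors and intervals are from the fit without the array number. The precision is limited by the 4 arrays of a group.

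Members and lists were chosen with earlier results of these data known. Named were all members, and from each list the gene with the smallest p in each comparison. Same-numbered arrays deviated together from their group means (r = 0.0987 to 0.284 for the tRNA and empty vectors, 0.108 to 0.333 for the hairpin and empty vectors, 0.113 to 0.356 for the hairpin and tRNA vectors). By a limit of 0.1 the numbers therefore pair the arrays in the last 2 comparisons, on the ground of these deviations and not of the labels. This pairing is not settled. Arrays numbered 4 did not match best with their own number for the hairpin and empty vectors. Neither did those numbered 3 and 4 for the tRNA and empty vectors. Alternatives were no filter, the 60th percentile, quantile normalization, an offset of 16, no trend, the replicate number or labelling level as a block, values within labelling levels, the mean over a gene's probe sets, each array left out, and the arrays numbered 2 to 4 alone, which was chosen after the data were seen.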

Additional observations from a re-analysis of the deposited data

Results flagged for a closer look

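In 3 of 21 groups of 4 arrays 1 array lay far from the other 3 by Dixon's criterion, which chance gives in about 1 in 20 groups. In each case it was an array numbered 1. EP300 had a signal of 1110 on tRNA vector array 1, against 840 to 858 on the other tRNA vector arrays, and without that array the log2 fold change over empty vector cells was 0.014 in place of 0.11. CREBBP had 2503 on tRNA vector array 1, against 1485 to 1545 on the others, and the change without it was -0.19 in place of -0.012. RBL2 had 1682 on empty vector array 1, against 1107 to 1178 on the others, and the change of the tRNA vector without it was -0.10 in place of -0.24. For RBL2 array 1 was the highest of each group, and in the arrays numbered 2 to 4 alone that change was -0.30.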

How the results depend on the processing

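In 63 fits (the one reported and 20 alternatives, in 3 comparisons) 0 member probe sets passed (smallest limma adjusted p = 0.153, RBL2 between the vectors with the replicate block), and 0 pathway list genes did. Over all probe sets the counts moved from 0 to 6 between the vectors with the replicate block, to 4, 3 and 8 in the 3 comparisons with the labelling level as a block, and to 1 between the vectors in the arrays numbered 2 to 4 alone. Of 504 alternative values for the members 468 kept their sign, or lay within 1 SD where no test was made. The 504 came from the brightest probe sets, apart from those taken as the mean over a gene's tested probe sets. Many of the 504 could not differ, since the other filters, a block and no trend leave a fold change as it is. Leaving out an array of the group not compared does so too, so the count is no measure of stability. Taken as the mean over all tested probe sets, the sign turned for MDM4 (-0.18 for the tRNA and -0.074 for the hairpin vector), RBL1 (0.077 with the tRNA vector) and CREBBP (-0.083 for the hairpin vector, -0.036 between the vectors). Leaving out single arrays turned the sign of values near 0. Those ranges were -0.16 to 0.24 for MDM4 and -0.19 to 0.059 for CREBBP with the tRNA vector, -0.049 to 0.28 for MDM4 and -0.24 to 0.016 for RBL1 with the hairpin vector, and -0.090 to 0.24 for MDM4, -0.13 to 0.12 for RBL1 and -0.12 to 0.0063 for CDKN2A between the vectors. Values within a labelling level that lay over 1 SD from the reported value were, with the tRNA vector, RB1 -0.033, CDKN2A -0.10, EP300 0.38 and CREBBP 0.52 on arrays 1, and CDKN2A 0.32 and CREBBP -0.37 on arrays 2. With the hairpin vector they were RB1 0.13, CDKN2A -0.20, EP300 0.91 and CREBBP 0.27 on arrays 1, and RBL1 -0.56, CDKN2A 0.27, EP300 0.019 and CREBBP -0.044 on arrays 2. Between the vectors they were CREBBP -0.25 on arrays 1, and RBL1 -0.53 and EP300 -0.067 on arrays 2. The cause was not tested. Dim probe sets limit what could be seen, with standard errors up to 0.86 among those tested.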
